A study of Homo sapiens with 12 samples.

Results

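Glycolysis turns glucose into pyruvate through a fixed chain of enzymes, and most of its steps can be carried out by more than one isozyme encoded by separate genes. When oxygen is scarce, prolyl hydroxylases such as EGLN1 stop marking the hypoxia-inducible factor HIF1A for destruction. HIF1A then drives glucose transporters, glycolytic enzymes and the kinases that keep pyruvate from being oxidized in the mitochondria. It also drives genes for angiogenesis, pH control, collagen modification and mitophagy. Tumor cells often run these genes also in the presence of oxygen. The expression of 39 such genes, of 34595 genes with a value, was examined in CD133+ and CD133- cells of 3 gastric cancer cell lines. They were taken from a list of gene symbols, and all 39 had a row. By role they were 12 genes of glucose uptake and upper glycolysis, 6 of lower glycolysis, 6 of lactate and pyruvate fate, 3 of the HIF machinery and 12 other HIF targets. PKM2 and ERO1L are the symbols in the deposited table for the genes now called PKM and ERO1A.

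The lines were KATO-III, SNU-216 and SNU-601, established human gastric carcinoma lines grown in RPMI1640 medium with calf serum. CD133 is the surface protein made from PROM1, used in many tumors to sort cells with stem-like traits, and the study asked which genes differ between cells with and without it. Cells of each line were stained with a phycoerythrin-labeled AC133 antibody, and the brightest 10% were sorted as CD133+ and the dimmest 6% as CD133-. The labels name no treatment, genetic change or low-oxygen culture in any group, and all groups share the staining and the sort. Total RNA of each of the 6 populations was hybridized on 2 Illumina HT-12 v3 BeadChip arrays, 12 arrays in all. The array labels name SNU-216, whereas the design text of the series names SNU201 in its place, and the labels were followed. Whether the 2 arrays of a population came from separate sorts was not stated, so p-values measure the spread between these arrays, which may be technical.

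Values are quantile-normalized intensities with background subtracted, on a linear scale, 1 row per gene symbol, and a value below 0 is a signal under the background. Each array holds the RNA of a whole sorted population, so that fewer cells with a transcript and less transcript per cell cannot be told apart. Intensities under a floor of 32.7 were set to the floor before log2 was taken, and a gene was tested where 2 or more arrays exceeded the floor, which held for 20147 genes (58.2%) and for 37 of the 39 described here. Each array measured 16320 to 16474 genes over the floor, and the number of arrays limits the precision. PROM1 itself was higher in the CD133+ cells of all lines, by 1.10 in KATO-III, 2.02 in SNU-216 and 1.86 in SNU-601 on the log2 scale. The epithelial markers EPCAM, KRT8, KRT18, KRT19 and CDH1 exceeded the floor on every array, and the endothelial markers PECAM1 and CDH5 on none. Between fractions CDH1 was called at -0.70 in KATO-III, 0.30 in SNU-216 and -0.25 in SNU-601, KRT18 at -0.39 in SNU-216, and no other epithelial marker in any line. Of 4 leukocyte markers CD14 was bright in KATO-III alone, where the summed level of the list was 848.7 to 884.5 in CD133+ and 1202 to 1255 in CD133- cells, with PTPRC and CD3E under the floor on every array. Of 4 fibroblast markers COL1A1 exceeded the floor on 7 arrays, COL1A2 on 1 and the other two on none, and the summed level of the list was 51.4 to 80.3 in CD133+ and 24.9 to 31.8 in CD133- cells of KATO-III, 21.8 to 44.4 in SNU-216 and 138.7 to 201.1 in SNU-601. TOP2A and CDC2, genes of dividing cells, were higher in CD133+ cells of all lines, and the summed level of 4 proliferation genes was 15588 to 16381 against 9920 to 10337 in KATO-III, 14439 to 15458 against 11626 to 11652 in SNU-216 and 14079 to 14655 against 10485 to 10595 in SNU-601. MKI67 and CCNB1, the rest of that list, were not higher in CD133+ cells of every line. MKI67 read 212 and 175 in CD133+ against 241 and 238 in CD133- cells of KATO-III. In SNU-216 it read 65.5 and 59.1 against 69.7 and 69.5, and in SNU-601 124 and 129 against 124 and 126. CCNB1 overlapped between the fractions of SNU-216, at 987 and 902 against 999 and 857, and was higher in CD133+ cells of the other lines. TOP2A made up most of each sum. The part of these marker differences in the results below was not tested.

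HIF binds DNA at a short core, ACGTG or GCGTG, read on either strand, and the 250 bases before the transcription start were searched for both cores in the RefSeq promoter table of build GRCh38.p14. Of the 39 genes 35 had an entry, 2 of them through a newer symbol, and for a gene with several starts the first listed was used, as for all genes. ACGTG was found in 16 of 35 (45.7%), against 18.7% of 27303 promoters of the same length. GCGTG was found in 14 of 35 (40.0%), against 31.9% of all. Either core was found in 23 of 35 (65.7%), against 43.1% of all. A match is only a string of letters and was not tied to binding here. No entry was present for SLC16A1, VEGFA, NDRG1 and BNIP3L. The promoters of CA9, ALDOC, ANKRD37 and P4HA1 are printed as examples that hold ACGTG, from genes with large differences between fractions in opposite directions. Other genes with large differences and an entry were not all alike. PDK3 held both cores, PFKFB4 and HIF1A held GCGTG alone, and PKM2 and LDHB held neither. They are written 5′ to 3′ on the strand of the gene, and capitals mark ACGTG or its reverse CACGT, with a joined CACGTG counted once.
CA9 promoter, plus strand of chr9:35673678-35673927: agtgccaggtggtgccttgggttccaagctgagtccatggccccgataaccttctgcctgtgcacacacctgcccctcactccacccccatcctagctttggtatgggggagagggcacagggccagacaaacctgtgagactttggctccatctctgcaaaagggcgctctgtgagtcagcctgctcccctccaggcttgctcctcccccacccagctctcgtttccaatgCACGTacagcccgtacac
ALDOC promoter, minus strand of chr17:28576896-28577145: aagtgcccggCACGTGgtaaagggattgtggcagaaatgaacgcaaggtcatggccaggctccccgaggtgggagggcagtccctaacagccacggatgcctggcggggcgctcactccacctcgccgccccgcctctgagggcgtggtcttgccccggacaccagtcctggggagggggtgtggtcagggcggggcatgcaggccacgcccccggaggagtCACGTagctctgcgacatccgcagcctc
ANKRD37 promoter, plus strand of chr4:185396591-185396840: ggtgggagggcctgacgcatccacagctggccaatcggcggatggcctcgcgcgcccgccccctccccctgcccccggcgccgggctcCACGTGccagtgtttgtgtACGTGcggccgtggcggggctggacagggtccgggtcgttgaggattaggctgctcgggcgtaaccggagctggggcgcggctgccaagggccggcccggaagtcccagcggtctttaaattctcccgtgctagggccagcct
P4HA1 promoter, minus strand of chr10:73096867-73097116: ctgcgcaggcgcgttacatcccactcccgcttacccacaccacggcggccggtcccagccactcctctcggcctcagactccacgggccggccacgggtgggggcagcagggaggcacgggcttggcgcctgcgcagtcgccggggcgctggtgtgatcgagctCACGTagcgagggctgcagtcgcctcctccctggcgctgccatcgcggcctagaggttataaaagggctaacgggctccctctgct
The match nearest to the start lies 18 bases before it in CA9, 28 in ALDOC, 143 in ANKRD37 and 86 in P4HA1.

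Differences between fractions varied with the line. All differences below are CD133+ minus CD133- on the log2 scale, with the standard error (SE) and the limma p-value adjusted by Benjamini-Hochberg over all 20147 genes, and a gene was called where that p was below 0.05. For differences within a line the spread behind the SE was pooled over all 6 populations. A population under the floor on its arrays added no spread. Values near the floor in a line entered the SE and p-value of the other lines, as for BNIP3. In KATO-III 22 of the 37 genes were called, 7 higher and 15 lower in CD133+ cells, where 39.3% of all genes tested were called, 18.7% higher and 20.6% lower. In SNU-216 15 of 37 were called, 11 higher and 4 lower, where 28.6% of all genes were called, 14.6% higher and 14.0% lower. In SNU-601 11 of 37 were called, 6 higher and 5 lower, where 16.4% of all genes were called, 8.59% higher and 7.78% lower. With only genes above the floor on all 12 arrays, 6293 of 11674 were called in KATO-III, 5169 in SNU-216 and 3073 in SNU-601. These shares were larger than those of all genes tested, and most of the 37 genes were above the floor on all arrays. The shares of all genes are thus not matched to the 37 genes in level. The median difference over the 37 genes was -0.24 in KATO-III, 0.06 in SNU-216 and -0.02 in SNU-601, and over all genes tested it was 0.00 in each line. With a further requirement of a 1.5-fold difference, 2 genes were higher and 6 lower in KATO-III (9.72% and 11.0% of all genes), 6 higher and 1 lower in SNU-216 (6.16% and 5.98%), and 2 higher and 1 lower in SNU-601 (2.79% and 2.36%). The largest differences among called genes were those of NDRG1, VEGFA, CA9, PFKFB4 and ALDOC in KATO-III, all lower, of P4HA1, NDRG1, HIF1A, LDHB and BNIP3L in SNU-216, and of PDK3, ANKRD37, PFKFB4, PKM2 and CA9 in SNU-601. Without the filter on dim genes the calls of PFKFB3, PGK1, LDHB and DDIT4 in KATO-III, of HK2, PFKM, PGAM1 and HIF1A in SNU-216 and of HK2 in SNU-601 were lost. Without the trend in the limma fit the same KATO-III calls, PFKM and PGAM1 in SNU-216 and HK2 in SNU-601 were lost. A block for replicate number ended those of PFKFB3 in KATO-III, PFKM in SNU-216 and HK2 and GPI in SNU-601. Fitting a line alone ended those of PGK1, LDHB and DDIT4 in KATO-III, PFKM in SNU-216 and ANKRD37 in SNU-601. A floor of 100 ended that of LDHB in KATO-III. PFKM in SNU-216 was lost in 18 of 22 alternatives.

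**Figure D1:**
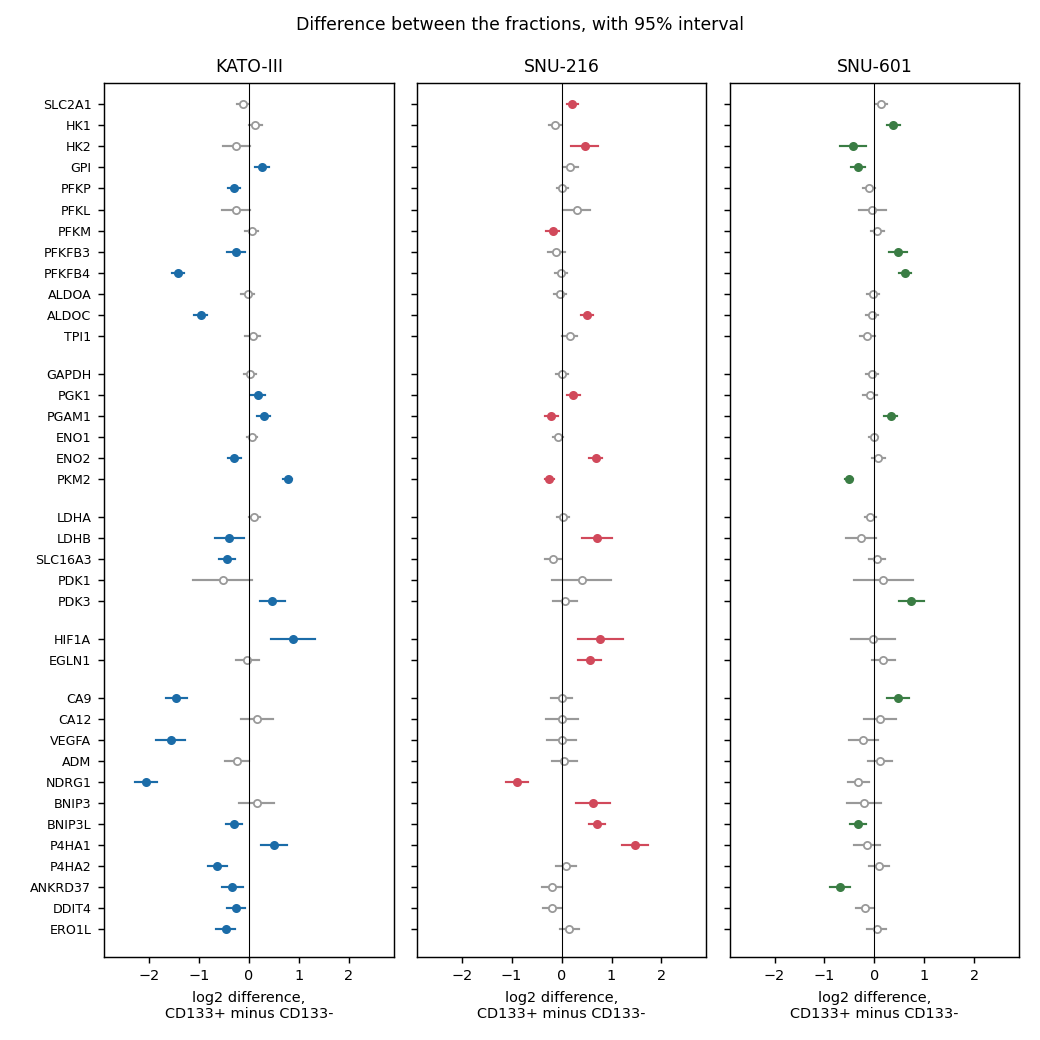
Log2 difference between CD133+ and CD133- cells (horizontal axis) of each gene tested, grouped by role, in KATO-III, SNU-216 and SNU-601, with 95% confidence intervals and filled points for genes called by limma. In KATO-III 15 of the 22 called genes lie left of 0, in SNU-216 11 of the 15 called genes lie right of it.

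None of the 37 genes was called in the same direction in all 3 lines by limma (0.630% of all genes were called higher and 0.427% lower in all), and at an unadjusted p under 0.05 it was 2, NDRG1 and DDIT4, both lower (1.04% of all genes were lower and 1.32% higher in all lines at that threshold). In all 11, namely HK2, GPI, PFKFB3, PFKFB4, ALDOC, PGAM1, ENO2, PKM2, LDHB, CA9 and BNIP3L, were called higher in one line and lower in another, where 10.9% of all genes were. Every call of PFKFB4, ALDOC, ENO2 and PKM2 held when any 1 array was left out. For each of the others at least 1 of the calls was lost without some array. The lower calls of BNIP3L in KATO-III and SNU-601 were lost without different arrays. PFKL, ALDOA, TPI1, GAPDH, ENO1, LDHA, PDK1, CA12 and ADM were called in no line, 9 of 37, where 43.8% of all genes were called in none and 56.2% in at least 1 line. A difference that varied between lines was called for 26 of 37 genes by the moderated F-test of the interaction, where 44.4% of all genes were called.

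Of the 12 genes of glucose uptake and upper glycolysis, which take glucose to triose phosphate, 5 were called in KATO-III (4 lower, 1 higher), 4 in SNU-216 (3 higher, 1 lower) and 5 in SNU-601 (3 higher, 2 lower). The shares of all genes called in these lines were 39.3%, 28.6% and 16.4%. The largest differences were those of PFKFB4 and ALDOC, and both had opposite directions in different lines. Values are given with the 2 CD133+ arrays before the 2 CD133- arrays of a line. SLC2A1 read 10905 and 11542 against 12582 and 11907 in KATO-III, 8157 and 8547 against 7159 and 7201 in SNU-216, and 10751 and 10627 against 9939.6 and 9461 in SNU-601. This gene encodes the GLUT1 glucose transporter, and its fractions did not overlap in any line. CD133+ cells were higher in SNU-216 at 0.22 (SE 0.048, adjusted p = 0.00911), while KATO-III at -0.13 and SNU-601 at 0.14 were not called. Without CD133+ replicate 2 of SNU-216 that call was lost (adjusted p = 0.0607). HK1 read 2279 and 2297 against 2017 and 2159 in KATO-III, 2392 and 2505 against 2656 and 2709 in SNU-216, and 2375 and 2615 against 1893 and 1934 in SNU-601. HK1, the hexokinase of most tissues, was called in SNU-601, where both CD133+ arrays were above both CD133- arrays, at 0.38 (SE 0.056, adjusted p = 0.00252). HK2 read 1307 and 1227 against 1518 and 1492 in KATO-III, 1229 and 931 against 773 and 782 in SNU-216, and 1547 and 1720.3 against 2094 and 2314 in SNU-601. HK2, the hexokinase induced in many tumors, was higher in CD133+ cells of SNU-216 at 0.46 (SE 0.12, adjusted p = 0.0169) and lower in those of SNU-601 at -0.43 (SE 0.12, adjusted p = 0.0362). The SNU-216 call was lost without CD133+ replicate 1 or either CD133- array of that line (adjusted p 0.0699 to 0.0779). The SNU-601 call was lost without any 1 of 10 arrays, the exceptions being the CD133+ arrays of SNU-216 (adjusted p 0.0545 to 0.178).

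The phosphofructokinases set the pace of glycolysis, and the PFKFB enzymes make and break fructose 2,6-bisphosphate, their activator. PFKP read 6459 and 6249 against 7530.1 and 8048 in KATO-III, 8055 and 7892 against 7995 and 7787 in SNU-216, and 5846 and 5802 against 6532 and 6002 in SNU-601. PFKP was lower in CD133+ cells of KATO-III at -0.29 (SE 0.052, adjusted p = 0.00186), and its fractions overlapped in SNU-216. PFKL read 547 and 601 against 653 and 720.4 in KATO-III, 596 and 789.9 against 551 and 565 in SNU-216, and 1015 and 1021 against 1093 and 1008 in SNU-601. PFKL was called in no line, with differences of -0.26, 0.30 and -0.04. PFKM read 1858 and 1897 against 1707 and 1914 in KATO-III, 1731 and 1723 against 1919 and 1982 in SNU-216, and 2054 and 2014 against 1908 and 2012 in SNU-601. PFKM was close to the threshold in SNU-216 at -0.18 (SE 0.057, adjusted p = 0.0497), and that call was lost without any 1 of 10 arrays (adjusted p 0.0574 to 0.193), the KATO-III CD133- arrays being the exceptions. PFKFB3 read 1628 and 1760.5 against 2108 and 1936 in KATO-III, 1462 and 1438 against 1649 and 1481 in SNU-216, and 1235 and 1378 against 933 and 949 in SNU-601. PFKFB3 was lower in CD133+ cells of KATO-III at -0.26 (SE 0.076, adjusted p = 0.0257) and higher in those of SNU-601 at 0.47 (SE 0.076, adjusted p = 0.00392). The KATO-III call was lost without CD133+ replicate 1 or CD133- replicate 1 of that line (adjusted p 0.151 to 0.154). PFKFB4 read 505 and 549 against 1385 and 1430.2 in KATO-III, 1331 and 1311 against 1336 and 1318 in SNU-216, and 841 and 833 against 535 and 563 in SNU-601. PFKFB4 was lower by 2.67-fold in CD133+ cells of KATO-III, at -1.42 (SE 0.054, adjusted p = 5.42e-07), and higher by 1.53-fold in those of SNU-601, at 0.61 (SE 0.054, adjusted p = 3.37e-04). In SNU-216 all 4 arrays lay within 1311 to 1336, and the difference was -0.01.

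Aldolase splits the hexose into triose phosphates. ALDOA read 7104 and 7049 against 7259 and 7131 in KATO-III, 6459 and 6486 against 6393 and 6808 in SNU-216, and 5782 and 5306 against 5810.2 and 5440.4 in SNU-601. ALDOA fractions overlapped in SNU-216 and SNU-601 and lay close to each other in KATO-III, and the differences were -0.02, -0.03 and -0.02, none called. ALDOC read 2468 and 2547 against 4875 and 4915 in KATO-III, 2261 and 2376 against 1593 and 1667 in SNU-216, and 1872 and 2009.6 against 1931 and 2086 in SNU-601. ALDOC, the isozyme best known from brain, was lower by 1.95-fold in CD133+ cells of KATO-III, at -0.97 (SE 0.055, adjusted p = 3.65e-06), and higher in those of SNU-216, at 0.51 (SE 0.055, adjusted p = 2.31e-04), with no overlap of the fractions in either line. In SNU-601 the 2 fractions of ALDOC overlapped. GPI, which converts glucose 6-phosphate to fructose 6-phosphate, read 4077 to 5441 in KATO-III and 7099 to 9087 in SNU-601, with CD133+ cells higher in the former at 0.26 (SE 0.063, adjusted p = 0.00982) and lower in the latter at -0.33 (SE 0.063, adjusted p = 0.00848). The GPI calls were lost in KATO-III without CD133+ or CD133- replicate 1 of that line (adjusted p 0.0609 to 0.0728) and in SNU-601 without its CD133+ replicate 1 (adjusted p = 0.0518). TPI1, the triose phosphate isomerase, was called in no line.

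Of the 6 genes of lower glycolysis, which take triose phosphate to pyruvate, 4 were called in KATO-III (3 higher, 1 lower), 4 in SNU-216 (2 higher, 2 lower) and 2 in SNU-601 (1 higher, 1 lower). The shares of all genes called in these lines were 39.3%, 28.6% and 16.4%. PKM2, the pyruvate kinase gene, was called in all 3 lines, and not in the same direction. PKM2 read 5500.0 and 5538 against 3279 and 3165 in KATO-III, 3349.9 and 3475 against 3976 and 4108 in SNU-216, and 5015 and 5081 against 7154 and 7223 in SNU-601. CD133+ cells were higher by 1.71-fold in KATO-III, at 0.78 (SE 0.038, adjusted p = 1.73e-06). They were lower in SNU-216, at -0.24 (SE 0.038, adjusted p = 0.00156), and lower in SNU-601, at -0.51 (SE 0.038, adjusted p = 1.81e-04), and the fractions overlapped in no line. GAPDH was called in no line, with differences of 0.02, 0.01 and -0.05 and all arrays between 12161 and 14185. PGK1, which makes the first ATP of the pathway, was higher in CD133+ cells of KATO-III at 0.18 (SE 0.060, adjusted p = 0.0390) and of SNU-216 at 0.24 (SE 0.060, adjusted p = 0.0167). Without 1 array the KATO-III call of PGK1 was lost in 11 of 12 cases, all but CD133- replicate 2 of that line (adjusted p 0.0536 to 0.235), and the SNU-216 call without any array of that line (adjusted p 0.0519 to 0.0837). PGAM1, the phosphoglycerate mutase, was higher in CD133+ cells of KATO-III at 0.30 (SE 0.059, adjusted p = 0.00374) and of SNU-601 at 0.33 (SE 0.059, adjusted p = 0.00670), and lower in those of SNU-216 at -0.21 (SE 0.059, adjusted p = 0.0304). The last of these calls was lost without any array of SNU-216 (adjusted p 0.0892 to 0.119).

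Enolase has a form in all tissues, ENO1, and a form known from neurons, ENO2. ENO1 read 15469 and 14823 against 14752 and 14175 in KATO-III, 16368 and 16609 against 16875 and 17681 in SNU-216, and 15266 and 15542 against 15724 and 15459.6 in SNU-601. ENO1 was called in no line, and its largest difference was 0.07 in size. ENO2 read 1658 and 1591 against 1995 and 1980.4 in KATO-III, 632 and 647 against 419.8 and 377 in SNU-216, and 1375 and 1369 against 1287 and 1316 in SNU-601. ENO2 fractions did not overlap in any line. CD133+ cells were lower in KATO-III, at -0.29 (SE 0.057, adjusted p = 0.00326), and higher in SNU-216, at 0.69 (SE 0.057, adjusted p = 5.47e-05), or 1.61-fold, while the difference of 0.08 in SNU-601 was not called.

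**Figure D2:**
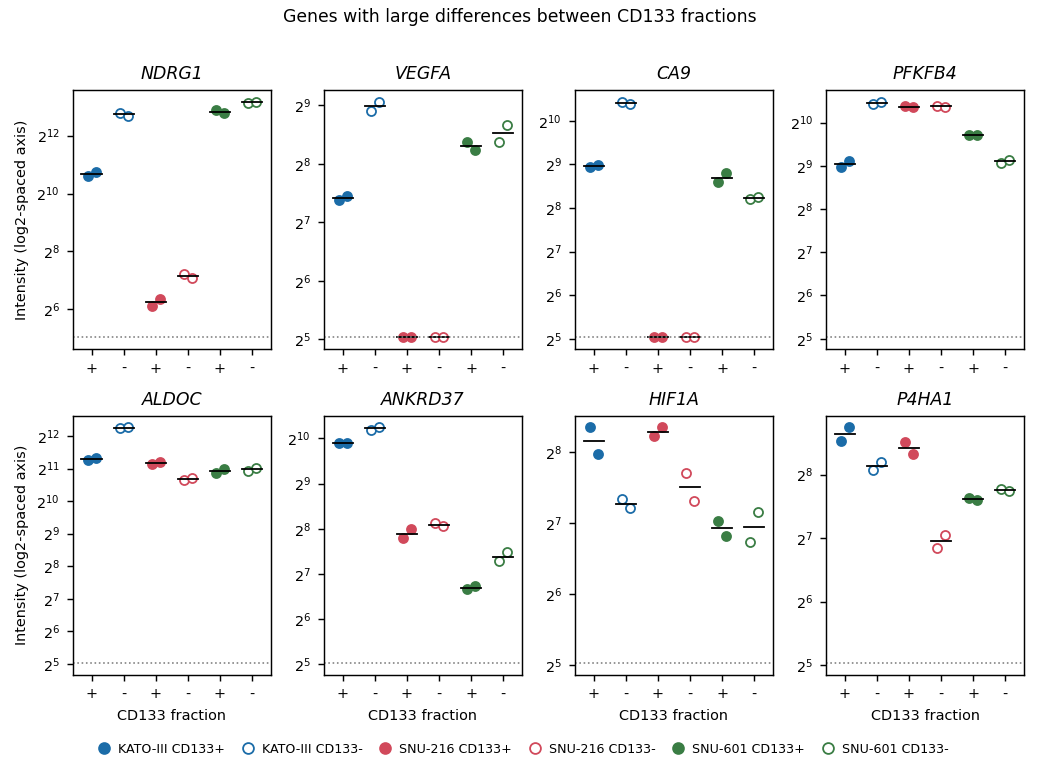
Intensity on each array (vertical axis, spaced by log2) of genes with the largest differences between fractions, with filled points for CD133+ and open points for CD133- cells, bars for the mean of the log2 values of 2 arrays and a dotted line for the floor of 32.7. NDRG1, VEGFA, CA9, PFKFB4 and ALDOC of KATO-III lie lower in CD133+ cells, and P4HA1 and HIF1A of KATO-III and SNU-216 lie higher.

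Of 5 genes of lactate and pyruvate fate tested, 3 were called in KATO-III (2 lower, 1 higher), 1 in SNU-216 (higher) and 1 in SNU-601 (higher). The shares of all genes called in these lines were 39.3%, 28.6% and 16.4%. LDHA read 10444 and 9576 against 9587 and 8928 in KATO-III, 11160.4 and 11255 against 10901 and 11041 in SNU-216, and 9698 and 9839 against 10399 and 10262 in SNU-601. LDHA, the lactate dehydrogenase subunit that favors lactate, was called in no line, and its fractions overlapped in KATO-III. LDHB read 4.94 and 1.97 against 48.7 and 37.6 in KATO-III, 5408 and 4898 against 3299 and 2984 in SNU-216, and 2691 and 2218 against 3028 and 2869 in SNU-601. LDHB, the subunit known from heart, was higher by 1.64-fold in CD133+ cells of SNU-216, at 0.71 (SE 0.13, adjusted p = 0.00348), and was not called in SNU-601 at -0.27. In KATO-III both CD133+ arrays lay under the floor and both CD133- arrays just above it, so CD133+ cells were at least 1.31-fold lower (adjusted p = 0.0434), a call that was lost without any of 9 arrays, the exceptions being CD133- replicate 2 of KATO-III and the CD133+ arrays of SNU-601 (adjusted p 0.0576 to 0.276). The lactate transporter SLC16A1 was under the floor on all 12 arrays, the highest value being 25.7. SLC16A3 read 6166 and 6768 against 8522 and 8986 in KATO-III, 8043 and 7975 against 9027 and 9027 in SNU-216, and 9423 and 8451 against 9102 and 8122 in SNU-601. SLC16A3, the lactate exporter MCT4, was lower in CD133+ cells of KATO-III at -0.44 (SE 0.073, adjusted p = 0.00139), and its fractions overlapped in SNU-601.

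The PDK kinases switch off pyruvate dehydrogenase. PDK1 read -2.98 and 40.0 against 49.3 and 54.8 in KATO-III, 85.8 and 60.8 against 66.5 and 44.7 in SNU-216, and 73.5 and 51.4 against 58.8 and 50.4 in SNU-601. PDK1 was dim on all arrays and was called in no line, and its fractions overlapped in SNU-216 and SNU-601. PDK3 read 2380.5 and 2362 against 1708 and 1716 in KATO-III, 1481 and 1418 against 1421 and 1342 in SNU-216, and 451 and 581 against 286 and 327 in SNU-601. PDK3 was higher in CD133+ cells of KATO-III, at 0.47 (SE 0.11, adjusted p = 0.00825), and of SNU-601, at 0.74 (SE 0.11, adjusted p = 0.00259), or 1.67-fold, with no overlap of the fractions in these 2 lines. The difference of 0.07 in SNU-216 was not called, nor was that of 0.43 over all lines.

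In the HIF machinery, HIF1A, the oxygen-labile subunit, was higher in the CD133+ cells of 2 lines. HIF1A read 326 and 251 against 161 and 149 in KATO-III, 299 and 325 against 208 and 159 in SNU-216, and 130.1 and 113 against 106 and 143 in SNU-601. The fractions did not overlap in KATO-III and SNU-216 and overlapped in SNU-601. The difference was 0.89 (SE 0.19, adjusted p = 0.00622) in KATO-III, 0.78 (SE 0.19, adjusted p = 0.0160) in SNU-216 and -0.02 in SNU-601, and it varied between lines (adjusted p = 0.0439 for the interaction). The KATO-III call was lost without its CD133+ replicate 1 (adjusted p = 0.0523) and the SNU-216 call without either CD133+ array or CD133- replicate 2 of that line (adjusted p 0.0513 to 0.108). EGLN1 read 239 and 251 against 257 and 245 in KATO-III, 802 and 878 against 626 and 517 in SNU-216, and 584 and 615 against 557 and 503 in SNU-601. EGLN1, the main oxygen-sensing prolyl hydroxylase, was higher in CD133+ cells of SNU-216 at 0.56 (SE 0.10, adjusted p = 0.00326) and was not called in the other lines. EGLN3, a hydroxylase that is itself a HIF target, was above the floor on 1 array, KATO-III CD133+ replicate 1 at 42.0, and was not tested.

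Among the 12 other HIF targets, 9 were called in KATO-III, 8 of them lower in CD133+ cells and P4HA1 higher, where 39.3% of all genes were called. In SNU-216 4 were called (3 higher, 1 lower) and in SNU-601 3 (1 higher, 2 lower), where 28.6% and 16.4% of all genes were. Of all genes 20.6% were called lower in KATO-III, and of the 16 further HIF targets tested from another list 4 were lower and 1 higher there, with a median of 0.00. The median difference over the 12 genes was -0.31 in KATO-III, 0.03 in SNU-216 and -0.17 in SNU-601. NDRG1 read 1556 and 1719 against 7129 and 6577 in KATO-III, 69.8 and 82.9 against 150.1 and 134 in SNU-216, and 7635 and 6978 against 8957 and 9246 in SNU-601. NDRG1, a stress-induced gene long known as a hypoxia marker, gave the largest difference in KATO-III, 4.19-fold lower in CD133+ cells, at -2.07 (SE 0.096, adjusted p = 1.41e-06). It was also lower by 1.87-fold in SNU-216, at -0.90 (SE 0.096, adjusted p = 2.08e-04), and stood at -0.32 (SE 0.096, adjusted p = 0.0561) in SNU-601, outside the call, with no overlap of the fractions in any line. The 3 differences were not alike (adjusted p = 5.65e-05 for the interaction). VEGFA read 167 and 176 against 478 and 535 in KATO-III, 26.3 and 29.6 against 31.3 and 22.0 in SNU-216, and 333 and 299.8 against 333 and 408 in SNU-601. VEGFA, the angiogenic growth factor, was lower by 2.95-fold in CD133+ cells of KATO-III, at -1.56 (SE 0.13, adjusted p = 2.46e-05), and lay under the floor on all arrays of SNU-216. CA9 read 491 and 506 against 1391 and 1332 in KATO-III, -12.4 and 10.6 against 4.83 and 6.01 in SNU-216, and 386 and 447 against 296 and 303 in SNU-601. CA9, a carbonic anhydrase of the cell surface that acidifies the surroundings of hypoxic cells, was lower by 2.73-fold in CD133+ cells of KATO-III, at -1.45 (SE 0.096, adjusted p = 7.62e-06), and higher in those of SNU-601, at 0.47 (SE 0.096, adjusted p = 0.0112). The SNU-601 call was lost without CD133+ replicate 2 or CD133- replicate 1 of that line (adjusted p 0.0549 to 0.0645), and SNU-216 was under the floor throughout. CA12 read 309 and 239.6 against 235 and 252 in KATO-III, -30.4 and -25.0 against -17.1 and -26.1 in SNU-216, and 37.0 and 35.9 against 16.1 and 34.6 in SNU-601. CA12, its relative, was called in no line.

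The prolyl 4-hydroxylase subunits P4HA1 and P4HA2 modify collagen and had different patterns. P4HA1 read 371 and 429 against 269 and 294 in KATO-III, 365 and 319.8 against 115 and 133 in SNU-216, and 198 and 194 against 219 and 215 in SNU-601. P4HA1 was higher by 2.77-fold in CD133+ cells of SNU-216, at 1.47 (SE 0.12, adjusted p = 4.37e-05), the largest difference of that line, and higher in those of KATO-III, at 0.50 (SE 0.12, adjusted p = 0.00785). The KATO-III call was lost without CD133+ replicate 2 or CD133- replicate 1 of that line (adjusted p 0.0529 to 0.0603), and the difference in SNU-601 was -0.14. P4HA2 read 892 and 886 against 1411 and 1336 in KATO-III, 789 and 844 against 695 and 845 in SNU-216, and 2148 and 2227 against 2107 and 1990.0 in SNU-601. P4HA2 was lower in CD133+ cells of KATO-III, at -0.63 (SE 0.086, adjusted p = 4.50e-04), and its fractions overlapped in SNU-216. BNIP3 and BNIP3L mark mitochondria for removal. BNIP3 read 40.5 and 25.0 against -6.98 and 3.84 in KATO-III, 8736 and 8014 against 5232 and 5603 in SNU-216, and 2.87 and -0.608 against 0.033 and 43.2 in SNU-601. BNIP3 was thus measured well above the floor in SNU-216 alone, where CD133+ cells were higher by 1.55-fold, at 0.63 (SE 0.15, adjusted p = 0.0132). That call was lost with a floor of 16 (adjusted p = 0.334) and without CD133+ or CD133- replicate 1 of SNU-216 (adjusted p 0.0784 to 0.0878). BNIP3L read 1069 and 923 against 1194 and 1244 in KATO-III, 1565 and 1644 against 949.9 and 1021 in SNU-216, and 2154 and 2146 against 2710.2 and 2686 in SNU-601. BNIP3L was higher in CD133+ cells of SNU-216 at 0.70 (SE 0.070, adjusted p = 1.43e-04) and lower in those of KATO-III at -0.30 (SE 0.070, adjusted p = 0.00935) and of SNU-601 at -0.33 (SE 0.070, adjusted p = 0.0143), and no line had an overlap of the fractions. The KATO-III call was lost without CD133+ or CD133- replicate 2 of that line (adjusted p 0.0523 to 0.0590) and the SNU-601 call without any array of that line (adjusted p 0.0606 to 0.0672).

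ANKRD37 read 954 and 949 against 1173 and 1215 in KATO-III, 224 and 254 against 279 and 266 in SNU-216, and 101 and 107 against 158 and 178 in SNU-601. ANKRD37, an ankyrin-repeat gene that responds to HIF, was lower in CD133+ cells of SNU-601 at -0.69 (SE 0.092, adjusted p = 0.00170) and of KATO-III at -0.33 (SE 0.092, adjusted p = 0.0206), and was not called in SNU-216 at -0.19. The fractions overlapped in none of the lines, and the KATO-III call was lost without any array of that line (adjusted p 0.0608 to 0.101). The SNU-601 call was lost when the 4 arrays of that line were fitted alone (adjusted p = 0.0527). DDIT4 read 10966 and 12359.5 against 12917 and 14864 in KATO-III, 8851 and 8831 against 9912 and 10236 in SNU-216, and 11416 and 11967 against 12874 and 13835 in SNU-601. DDIT4, an inhibitor of mTOR signaling, was lower in CD133+ cells of KATO-III at -0.25 (SE 0.078, adjusted p = 0.0313), a call lost without CD133+ replicate 1 or CD133- replicate 2 of that line (adjusted p 0.201 to 0.207). The other lines gave -0.19 and -0.19. ERO1L, an oxidase of disulfide bond formation, was lower in CD133+ cells of KATO-III at -0.46 (SE 0.082, adjusted p = 0.00202). ADM, the vasodilator peptide adrenomedullin, was called in no line.

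Over all lines, with line as a block, 3 of the 37 genes were called, all lower in CD133+ cells, where 4.73% of all genes were called, 2.62% higher and 2.11% lower. They were NDRG1 at -1.09 (SE 0.23, adjusted p = 0.0263), ANKRD37 at -0.40 (SE 0.10, adjusted p = 0.0449) and DDIT4 at -0.21 (SE 0.048, adjusted p = 0.0350), and each had the same sign in all lines. Of these NDRG1 alone also passed 1.5-fold, where 0.799% of all genes were called and at least 1.5-fold lower and 0.943% higher. None of the 3 calls held under every alternative. Leaving out 1 array ended the NDRG1 call for each KATO-III array and for SNU-216 CD133+ replicate 1 (adjusted p 0.0527 to 0.0677), the ANKRD37 call for all arrays but SNU-216 CD133+ replicate 2 (0.0584 to 0.0997), and the DDIT4 call for all but CD133+ replicate 2 and CD133- replicate 1 of SNU-601 (0.0561 to 0.0830). This fit takes both arrays of a population as independent. When they were averaged first, no gene of the whole table was called (992 of 20147, and 2 of 37 here, had an unadjusted p under 0.05) and the adjusted p of the 3 genes was 0.796. The signal-to-noise ratio, the mean difference over the sum of the SDs on linear intensities, passed neither 1 nor -1 for any of the 39 genes, where 0.558% of all genes passed 1 and 0.402% passed -1. Computed within each line and averaged, it passed 1 for 7 and -1 for 15 of the 39, where 15.8% and 17.6% of all genes did. Over all 12 arrays it ran from -0.635 for SLC16A3 to 0.671 for EGLN3, a gene dim throughout, followed by 0.670 for HIF1A.

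Between the lines, levels differed for most of the genes. A difference between any of the lines, taken over both fractions, was called for 35 of 37 genes, where 72.3% of all genes were called, the exceptions being GAPDH and PDK1. Between KATO-III and SNU-216 33 of 37 were called, 19 higher and 14 lower in KATO-III (62.0% of all genes, 30.3% higher and 31.7% lower). Between KATO-III and SNU-601 30 were called, 17 higher and 13 lower in KATO-III (58.6%, 28.7% and 29.9%). Between SNU-216 and SNU-601 31 were called, 16 higher and 15 lower in SNU-216 (56.5%, 29.4% and 27.1%). Of these 94 calls, 9 were lost without at least 1 array, those of GAPDH, PFKM and TPI1 in 2 pairs each and of ALDOA, SLC16A3 and PDK1 in 1. Genes that were under the floor in 1 line and tested because of another had to differ between these lines, so these counts are a description. At least 2-fold, 6 genes were higher and 5 lower in KATO-III than in SNU-216 (12.0% and 10.9% of all genes), 4 higher and 5 lower in KATO-III than in SNU-601 (9.33% and 8.75%), and 3 higher and 6 lower in SNU-216 than in SNU-601 (10.9% and 11.8%).

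**Figure D3:**
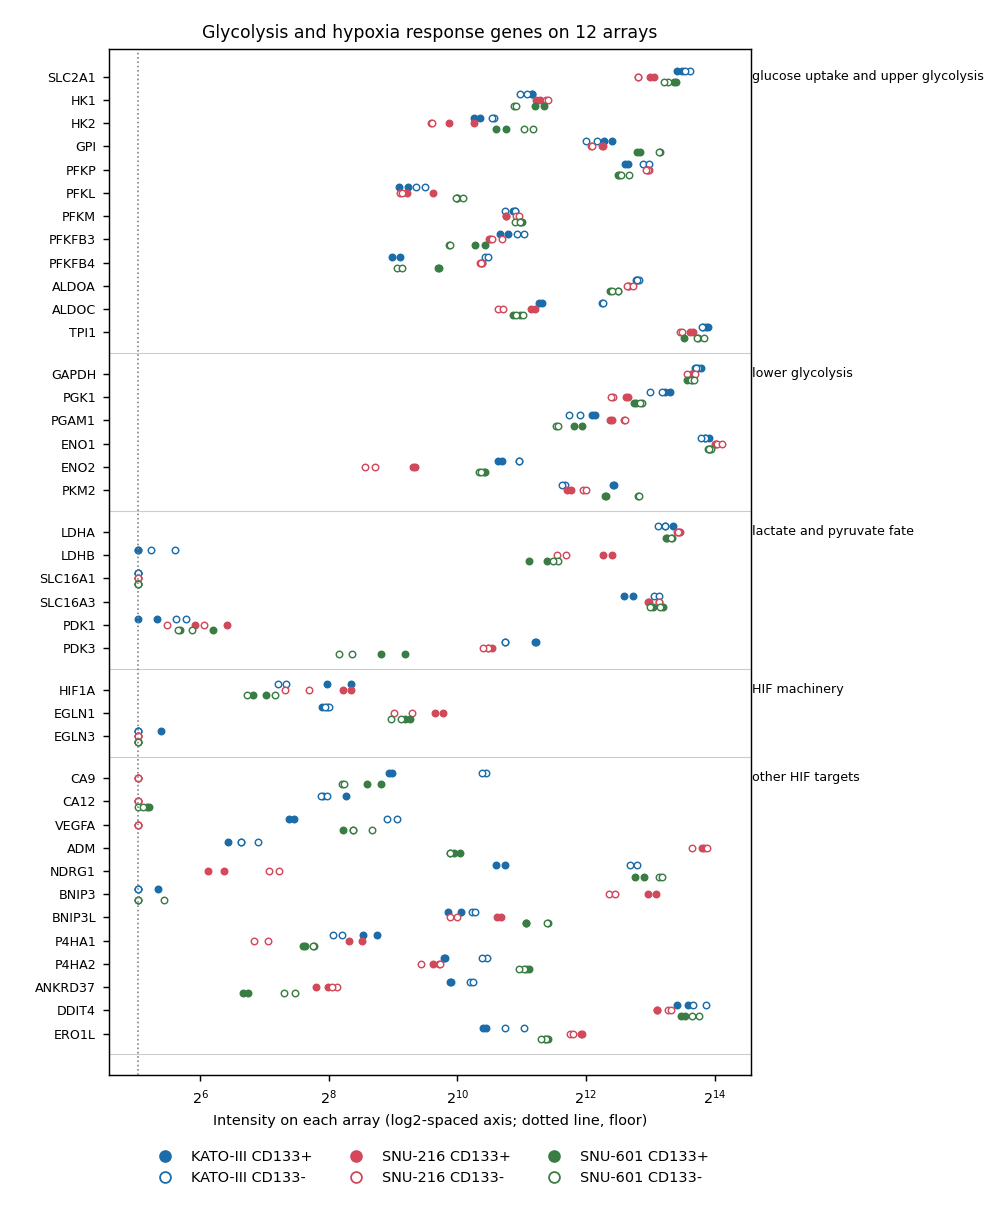
Intensity on each of the 12 arrays (horizontal axis, spaced by log2) of all 39 genes, grouped by role, with colors for the lines, filled points for CD133+ and open points for CD133- cells, and a dotted line for the floor of 32.7. The lines differ by up to 2.08-fold in upper and 3.56-fold in lower glycolysis, whereas LDHB, CA9, VEGFA, ADM, NDRG1 and BNIP3 span wide ranges, with at least 1 line at or near the floor for LDHB, CA9, VEGFA and BNIP3.

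Among the 12 genes of uptake and upper glycolysis the largest fold between lines was 2.08 (HK2, SNU-601 over SNU-216), and among the 6 of lower glycolysis it was 3.56 (ENO2, KATO-III over SNU-216). By level ENO2 was highest in KATO-III, then in SNU-601 and then in SNU-216, and each neighbor in that order differed. LDHB was at least 107-fold higher in SNU-216 and at least 71.8-fold higher in SNU-601 than in KATO-III, where 2 of 4 arrays were above the floor. PDK3 was 5.09-fold higher in KATO-III and 3.57-fold higher in SNU-216 than in SNU-601. HIF1A was lowest in SNU-601, by 1.72-fold against KATO-III and 1.95-fold against SNU-216, and KATO-III and SNU-216 did not differ beyond the spread (log2 difference -0.18, SE 0.14).

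The HIF targets did not share an order of lines. ADM read 12823 to 15077 in SNU-216, 943.1 to 1055 in SNU-601 and 86.4 to 119.7 in KATO-III, so SNU-216 was 14.4-fold above SNU-601 and 141-fold above KATO-III. BNIP3 was at least 195-fold higher in SNU-216 than in KATO-III and at least 192-fold higher than in SNU-601, each with 1 of 4 arrays above the floor. NDRG1 was lowest in SNU-216, 32.2-fold under KATO-III and 78.4-fold under SNU-601. CA9 and VEGFA were also lowest in SNU-216, where no array was above the floor, and were at least 25.2-fold and at least 9.01-fold higher in KATO-III. CA12 was at least 7.87-fold higher in KATO-III than in SNU-216 and at least 7.35-fold higher than in SNU-601, where 3 of 4 arrays were above the floor. ANKRD37 was highest in KATO-III, 4.18-fold above SNU-216 and 8.08-fold above SNU-601. EGLN1 was lowest in KATO-III, 2.79-fold under SNU-216. All of the folds given here belong to called differences, the highest adjusted p being 8.75e-04, for HIF1A between KATO-III and SNU-601.

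**Figure D4:**
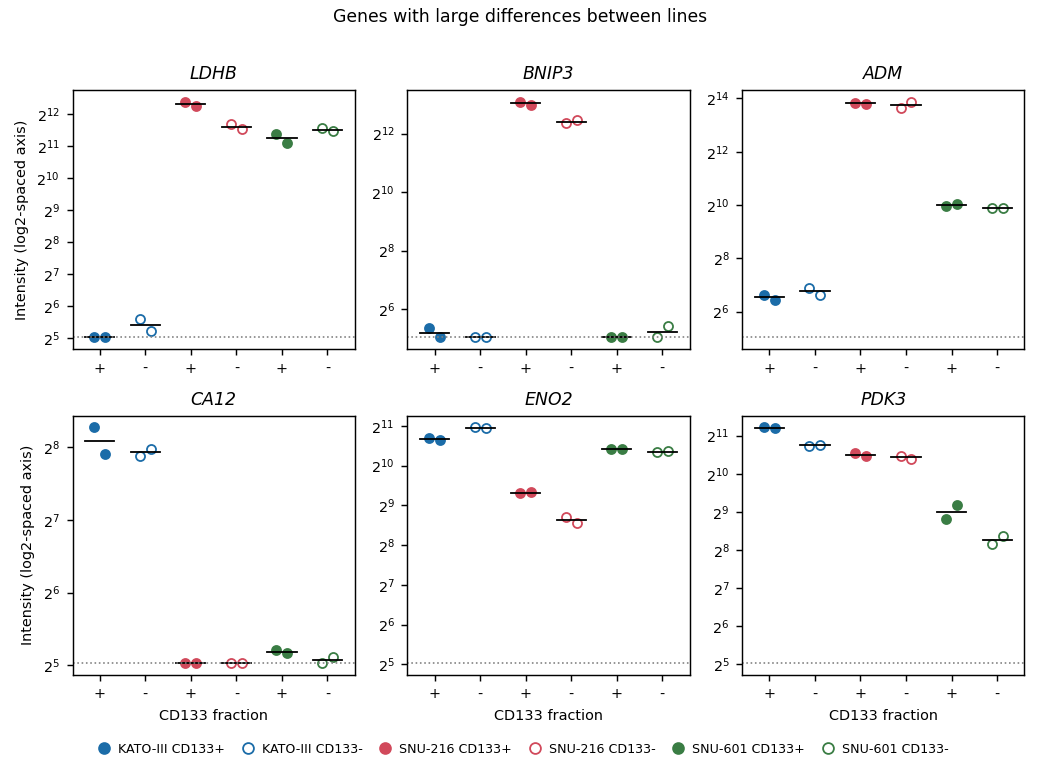
Intensity on each array (vertical axis, spaced by log2) of 6 genes with large differences between lines, with filled points for CD133+ and open points for CD133- cells, bars for the mean of the log2 values of 2 arrays and a dotted line for the floor of 32.7. LDHB lies at or near the floor in KATO-III, BNIP3 in KATO-III and SNU-601, and CA12 in SNU-216 and SNU-601.

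A further 70 genes of the same pathways had a row, and 58 of them were tested. In KATO-III 26 of 58 were called (10 higher, 16 lower), in SNU-216 25 (19 higher, 6 lower) and in SNU-601 9 (5 higher, 4 lower), with medians of 0.00, 0.08 and -0.03, where 39.3%, 28.6% and 16.4% of all genes were called. SLC2A3, which encodes the glucose transporter GLUT3, read 133 and 152 in CD133+ and 477 and 473 in CD133- cells in KATO-III, 42.7 and 62.4 in CD133+ and 8.13 and 23.9 in CD133- cells in SNU-216 and 3864 and 3854 in CD133+ and 1424 and 1458 in CD133- cells in SNU-601. It was lower by 3.34-fold in CD133+ cells of KATO-III, at -1.74 (SE 0.15, adjusted p = 3.77e-05), and higher by 2.68-fold in those of SNU-601, at 1.42 (SE 0.15, adjusted p = 7.17e-04). In SNU-216 both CD133- arrays lay under the floor, so CD133+ cells were at least 1.58-fold higher (adjusted p = 0.0115), a call lost without either of these 2 arrays (adjusted p 0.0507 to 0.0521). DLAT, DLD, PDHX, PDHB and PDHA1 encode parts of the pyruvate dehydrogenase complex, which oxidizes pyruvate in the mitochondria. DLAT, DLD, PDHX and PDHB were higher in CD133+ cells of KATO-III and PDHA1 was not called. None of the 5 was called in SNU-216 or SNU-601. The KATO-III differences of DLAT, DLD, PDHX and PDHB were 1.10, 1.19, 1.25 and 0.33, and DLAT was also called over all lines at 0.60 (SE 0.13, adjusted p = 0.0300). The last call was lost without any array of KATO-III or CD133- replicate 2 of SNU-216 (adjusted p 0.0526 to 0.0761). C12ORF5, now called TIGAR, was higher in CD133+ cells of SNU-216 at 0.88 (SE 0.069, adjusted p = 4.13e-05) and of KATO-III at 0.30 (SE 0.069, adjusted p = 0.00852), the last lost without CD133+ replicate 1 or CD133- replicate 2 of KATO-III (adjusted p 0.0621 to 0.0647).

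EPAS1, another oxygen-labile HIF subunit, did not follow HIF1A in every line. EPAS1 read 653 and 718 in CD133+ and 1179 and 1148 in CD133- cells in KATO-III, 845 and 811 in CD133+ and 313 and 284 in CD133- cells in SNU-216 and 3279 and 3186 in CD133+ and 3455 and 3200.5 in CD133- cells in SNU-601. It was lower by 1.70-fold in CD133+ cells of KATO-III, at -0.77 (SE 0.069, adjusted p = 4.11e-05), where HIF1A was higher, and higher by 2.78-fold in those of SNU-216, at 1.48 (SE 0.069, adjusted p = 3.19e-06), where HIF1A was higher too. EGLN2, another HIF prolyl hydroxylase, was called lower over all lines at -0.24 (SE 0.060, adjusted p = 0.0438), a call lost without any 1 of 10 arrays, all but the CD133+ replicate 2 and CD133- replicate 2 arrays of SNU-601 (adjusted p 0.0560 to 0.109). Among 16 further HIF targets tested, 5 were called in KATO-III (4 lower, 1 higher), 6 in SNU-216 (5 higher, 1 lower) and 3 in SNU-601 (3 higher). The shares of all genes called in these lines were 39.3%, 28.6% and 16.4%. HMOX1, the heme oxygenase, was lower in CD133+ cells of KATO-III at -1.09 (SE 0.068, adjusted p = 5.65e-06) and higher in those of SNU-216 at 0.48 (SE 0.068, adjusted p = 9.10e-04). BHLHB2, a HIF-induced repressor now called BHLHE40, was lower in CD133+ cells of KATO-III at -0.81 (SE 0.051, adjusted p = 5.79e-06) and higher in those of SNU-601 at 0.41 (SE 0.051, adjusted p = 0.00124).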

How the data were processed

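The authors deposited a table of quantile-normalized intensity values on a linear scale, with 1 row per gene symbol, from 12 Illumina HT-12 v3 BeadChip arrays. BeadStudio is named in the submitters' processing notes, and its version and how probes of a gene were combined are not given in the sources used here. The values had background subtracted, and 32.1% were at or below 0. Of 34688 rows 93 were empty. Values under 32.7 were raised to that floor, which is minus the value at the 1st percentile, log2 was taken, and a gene needed 2 arrays over the floor. limma 3.58.1 in R 4.3.3 was used (lmFit, eBayes with trend), with 6 population means (6 residual degrees of freedom) for the lines, the interaction and each line, and with line as a block (8) over all lines. Calls used a Benjamini-Hochberg adjusted p of 0.05 over all genes tested. Where the dimmer group was under the floor, folds are lower bounds.

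Named genes were the glucose transporter SLC2A1, isozyme groups, HIF1A, genes called over all lines and the 5 largest called differences of each line, and other pathway genes were chosen from their lists after their values were seen. The genes and lists were chosen with earlier results of these data known. On simulated data of 11674 genes with 200 changed, limma recovered 52.0% of changes of 0.5 and 84.0% of changes of 1 on the log2 scale in KATO-III, 79.5% and 97.0% over all lines, and 69.0% and 93.5% between KATO-III and SNU-216. Only genes above the floor on all 12 arrays were simulated, with independent noise on each array. Over all lines the change was the same in each line. In the data the arrays of a population had a consensus correlation of 0.641, and 44.4% of all genes were called for the interaction. The shares over all lines therefore do not carry over to these data. In the data 39.3% of genes were called in KATO-III and 62.0% between KATO-III and SNU-216, far larger shares than were changed in the simulation. The adjusted p-value depends on that share, so the other recovered shares do not carry over either. Alternatives were floors of 16 and 100, an offset of 100, centred or requantiled arrays, filters, no trend, a replicate block, other treatments of population replicates, the 4 arrays of a line alone and leaving out each array. Promoters were from RefSeq. Python 3.11.15, numpy 2.4.6, pandas 2.3.3 and matplotlib 3.10.9 were used for the rest.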

Additional observations from a re-analysis of the deposited data

Results flagged for a closer look

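For 26 of the 37 genes the difference between fractions varied between the 3 lines (interaction term in limma, moderated F-test), and the adjusted p is given for each. Among genes of uptake and upper glycolysis it was 0.00709 for SLC2A1, 0.00230 for HK1, 0.00460 for HK2, 0.00133 for GPI, 0.0204 for PFKP, 0.00134 for PFKFB3, 2.07e-06 for PFKFB4 and 1.03e-05 for ALDOC. Among those of lower glycolysis it was 0.0228 for PGK1, 0.00139 for PGAM1, 7.69e-05 for ENO2 and 3.19e-06 for PKM2. For lactate and pyruvate fate it was 0.00221 for LDHB, 0.0120 for SLC16A3 and 0.0180 for PDK3, and for the HIF machinery 0.0439 for HIF1A and 0.0220 for EGLN1. Among the other HIF targets it was 3.09e-05 for CA9, 3.27e-04 for VEGFA, 5.65e-05 for NDRG1, 0.0308 for BNIP3, 9.38e-05 for BNIP3L, 2.44e-04 for P4HA1, 0.00175 for P4HA2, 0.0297 for ANKRD37 and 0.00494 for ERO1L. For CA9, VEGFA and BNIP3 at least 1 line had no array, or 1 array, above the floor, so its difference there was bounded at or near 0. For LDHB the CD133+ arrays of KATO-III were under the floor, so its difference in that line was only a lower bound in size.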

How the results depend on the processing

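Without a filter on dim genes, 0 of the 3 genes called over all lines by limma were called, and 10 of the 39 then tested had an unadjusted p under 0.05, as many as with the filter. The count was also 0 with the replicate block (6 unadjusted), with the arrays of a population averaged first (2 unadjusted) and with each population fitted as a random block (6 unadjusted, consensus correlation 0.641). Leaving out 1 array gave 0 to 2 genes called, of any of the 37. It gave 0 without each KATO-III array or SNU-216 CD133+ replicate 1. It gave 1 without either CD133- array of SNU-216 or SNU-601 CD133+ replicate 1, and 2 without any other. Leaving out 1 array gave 15 to 22 calls in KATO-III, 10 to 17 in SNU-216, 8 to 12 in SNU-601, 20 to 25 for the interaction, 34 to 36 for the lines and 30 to 33, 27 to 30 and 29 to 31 for their pairs. The signal-to-noise ratio passed 1 or -1 for 0 to 0 genes with 1 array left out and for 22 (7 above, 15 below, against 15.8% and 17.6% of all genes) when computed within each line and averaged. Replicate numbers did not pair the fractions (r of deviations 0.0261, 0.0129 and -0.00648 over 20147 genes), and the replicate block gave 22, 16 and 10 calls in KATO-III, SNU-216 and SNU-601. Every other count stayed within 1.5 times. Of 1119 values of single calls between fractions under 24 alternatives, 152 were no longer called and 0 changed direction. Between lines it was 73 and 0 of 1960, and for the further pathway genes 133 and 0 of 1376. Causes were not tested. Genes near the floor, such as PDK1 and LDHB in KATO-III, have a signal too low over background to show small differences.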

Other observations

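Of 8 genes of glycogen metabolism tested, 5 were called in SNU-216, all higher in CD133+ cells, 4 in KATO-III (2 higher, 2 lower) and 2 in SNU-601 (1 higher, 1 lower), where 28.6%, 39.3% and 16.4% of all genes were called. In SNU-216 the PGM2 call was lost without any array of that line, and the PGM1 call without CD133+ replicate 2 or either CD133- array. The PGM1 call in SNU-601 and the UGP2 call in KATO-III were also lost without some arrays of their line. PPP1R3C, a scaffold that directs a phosphatase to glycogen, read 2119 and 2016 in CD133+ and 796 and 828 in CD133- cells in SNU-216, 2.54-fold higher in CD133+ cells, at 1.35 (SE 0.10, adjusted p = 3.62e-05), and lay under the floor on all arrays of the other lines. GBE1, the glycogen branching enzyme, was higher in the same cells at 0.82 (SE 0.16, adjusted p = 0.00441), and UGP2, which makes the glucose donor for glycogen, at 0.68 (SE 0.065, adjusted p = 1.13e-04). PYGB, a glycogen phosphorylase, was lower in CD133+ cells over all lines, at -0.37 (SE 0.090, adjusted p = 0.0406), a call lost without any 1 of 10 arrays, all but the replicate 2 arrays of SNU-216 (adjusted p 0.0553 to 0.0997). Of 7 genes of the pentose phosphate pathway, 3 were called in SNU-216 and 1 in each of the other lines, the last a share under that of all genes. PGLS, the lactonase of its oxidative branch, was lower by 2.08-fold in CD133+ cells of SNU-216, at -1.06 (SE 0.077, adjusted p = 2.71e-05).

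Several pathway genes were seen in a single line. FBP1, which reverses the phosphofructokinase step, read 2044 and 1849 in CD133+ and 3244 and 3128 in CD133- cells in KATO-III, was lower in its CD133+ cells at -0.71 (SE 0.10, adjusted p = 5.54e-04), and was under the floor on all arrays of the other lines, at least 76.1-fold lower. The HIF targets STC2 and IGFBP3 were under the floor on all arrays of KATO-III and SNU-601 and at least 137-fold and at least 388-fold higher in SNU-216, where neither was called between fractions (0.00 and -0.08).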
